A study of Homo sapiens with 6 samples.

Results

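The expression of 8 genes of cholesterol synthesis and its control was followed in Ewing sarcoma cells exposed to THZ1. The genes were HMGCS1, INSIG1, SQLE, IDI1, FDFT1, LSS, SREBF2 and DHCR7, taken by symbol from a table of 27420 genes (20311 protein-coding, 7109 lincRNA), and all 8 were found there once. Genes for lipoprotein uptake are not among the 8, so the name of the group was kept to synthesis and its control, and uptake genes are described only as a list further on. RNA-Seq had been performed on A673 and SKNMC, established lines of Ewing sarcoma, a tumor driven by the EWS-FLI1 fusion protein. THZ1 is a covalent inhibitor of CDK7, a kinase of the general transcription machinery. Each line was kept for 6 h with the vehicle DMSO or with THZ1 at 50 or 200 nM, and both lines grew in medium with fetal bovine serum, which itself carries cholesterol. The labels give 1 sample per condition, 6 in all, and each column of the table was taken as 1 library, although the table is described as holding average expression and whether runs were averaged is not given in the sources used here. Values within a line therefore have no replicate error and no test. A dose effect shared by both lines was tested across the table with the line as a block. In bulk RNA, fewer cells of one kind and less RNA per cell cannot be told apart.

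Cholesterol is built from acetyl-CoA through mevalonate, isoprenoid units, squalene and lanosterol. The pathway is steered by SREBP-2, the product of SREBF2, a transcription factor that is held in the membrane of the endoplasmic reticulum. When sterols are plentiful, INSIG proteins keep the carrier protein SCAP and its SREBP cargo there, and when sterols run low the factor is carried to the Golgi, cut free and sent to the nucleus, where it raises the genes of synthesis and uptake, INSIG1 included. SREBP proteins usually bind next to NF-Y, whose site is the CCAAT box, or next to Sp1, whose site is a GC box.

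Promoter sequences are shown because these genes are known as a co-regulated set, while in the data below they did not move as one. RefSeq promoter windows (build GRCh38.p14) were found for 6 of the 8 genes, in 10 windows, and SQLE and FDFT1 had no entry. In the 250 bases before the start, 3 motifs were searched on both strands: TCACNCCAC (core of the sterol regulatory element), CCAAT and GGGCGG. The shares count genes with at least 1 match in any window, so overlapping matches do not add. CCAAT was present for 6 of the 6 genes, against 37.0% of 27305 genes with a window. GGGCGG was present for 6 of the 6, against 46.2%, and TCACNCCAC for SREBF2 alone, against 1.09%. These percentages cover all genes with a window, whether active in these cells or not. A gene with more windows has more chances of a match. CCAAT was in 1 of 2 windows of HMGCS1, in 2 of 3 of IDI1 and in 1 of 2 of DHCR7. The 60-base stretches below run 5′ to 3′ along the gene, capitals mark the sterol element or the CCAAT box (ATTGG where it lies on the other strand), and positions count back from -1, the last base before the start.
SREBF2, chr22:41832957-41833016, + strand, sterol element at -133 and CCAAT box at -106: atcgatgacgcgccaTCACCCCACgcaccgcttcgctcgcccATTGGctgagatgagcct
INSIG1, chr7:155297693-155297752, + strand, CCAAT box at -170: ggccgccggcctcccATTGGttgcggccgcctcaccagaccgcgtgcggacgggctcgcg
HMGCS1, chr5:43313468-43313527, - strand, CCAAT box at -100: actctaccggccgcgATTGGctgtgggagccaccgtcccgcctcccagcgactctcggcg
IDI1, chr10:1049192-1049251, - strand, CCAAT box at -117: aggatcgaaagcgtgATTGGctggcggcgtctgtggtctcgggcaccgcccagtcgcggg
LSS, chr21:46228880-46228939, - strand, CCAAT box at -150: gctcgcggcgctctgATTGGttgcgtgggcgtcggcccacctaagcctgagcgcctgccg
DHCR7, chr11:71448397-71448456, - strand, CCAAT box at -48: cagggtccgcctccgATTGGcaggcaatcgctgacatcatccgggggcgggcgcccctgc
A match is a run of letters and no evidence of binding, and the absence of TCACNCCAC from a window says nothing about SREBP at that gene, since sterol elements vary in sequence.

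Levels are FPKM, fragment counts scaled to transcript length and to library size, as deposited. Changes are log2((FPKM + 1) with THZ1 / (FPKM + 1) with DMSO), where 1 is the pseudocount, and active genes are those above 1 FPKM with DMSO in the line. FPKM is a share of a library, so a fall that touched every transcript alike would not show. Read depth is unknown. From the most frequent ratio of values under 0.3 FPKM, the THZ1 libraries had between 89.0% and 97.1% of the depth of their DMSO library, a rough figure that rests on 1.99% to 3.2% of those genes. The 7 Ewing sarcoma markers looked up lay between 14.8 and 711 FPKM with DMSO. Of 6 listed markers of blood, epithelium and endothelium, 5 stayed at or below 0.826 FPKM in every library, while PTPRC, a leukocyte marker, was between 7.90 and 13.1 FPKM in the SKNMC libraries and at most 0.0291 in A673.

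The 8 genes split into 3 patterns. INSIG1 and SQLE were lower with THZ1 in both lines at both doses and passed 2-fold in both lines at 200 nM. HMGCS1 and IDI1 were moderately lower in most comparisons and did not pass 2-fold. SREBF2 was above its DMSO value in all 4 comparisons, and LSS, FDFT1 and DHCR7 were above it in A673 and mostly below it in SKNMC, although several of these signs change with the scaling of the libraries, as given with each gene. The 8 had a median log2 fold change of -0.15 (50 nM) and -0.05 (200 nM) in A673, where all active genes had medians of -0.27 and -0.40. In SKNMC it was -0.22 and -0.54, where all active genes had -0.32 and -0.55.

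At least 2-fold lower in A673 were 1 of 8 genes at 50 nM (INSIG1), with 15.9% of 11077 active genes past the same threshold, and 2 of 8 at 200 nM (INSIG1 and SQLE), with 25.3%. In SKNMC these counts were 0 of 8 at 50 nM, with 15.8% of 11896 active genes, and 2 of 8 at 200 nM (again INSIG1 and SQLE), with 27.3%. With only 8 genes, these shares lie near those of all active genes. At least 2-fold higher were 0 of 8 genes in each comparison, where the shares of active genes were 0.343% and 0.126% in A673 and 0.471% and 0.462% in SKNMC at 50 and 200 nM. In A673 the 8 genes summed to 439 FPKM under DMSO, 401 under the low dose and 425 under the high one. For SKNMC the sums were 407, 350 and 271 FPKM, so the summed level was kept more fully in A673.

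For the dose effect shared by both lines, limma was fitted to log2(FPKM + 1) of the 11503 genes with a mean above 1 FPKM, with terms for line and dose and 2 residual degrees of freedom. The lines stand in for replicates in this fit, so its error comes from the disagreement between A673 and SKNMC. The fit also moves the error of each gene toward a trend over all 11503 genes. Its SE and p-values are therefore not a measure of the disagreement at that gene alone. At 50 nM, 2 of 8 genes were lower at a Benjamini-Hochberg adjusted p under 0.05, where 33.5% of genes were lower and 4.86% higher. INSIG1 fell by 1.11 ± 0.24 (SE) on the log2 scale (limma, adjusted p = 0.00481) and SQLE fell by 0.63 ± 0.14 (limma, adjusted p = 0.0059). At 200 nM, 4 of 8 genes were lower and 1 was higher, where 47.6% of genes were lower and 5.91% higher. INSIG1 fell by 1.98 ± 0.24 (limma, adjusted p = 6.89e-05), SQLE fell by 1.73 ± 0.14 (limma, adjusted p = 8.04e-06), IDI1 fell by 0.68 ± 0.18 (limma, adjusted p = 0.00852) and HMGCS1 fell by 0.52 ± 0.17 (limma, adjusted p = 0.0233), each lower in both lines. SREBF2 was higher by 0.36 ± 0.13 (limma, adjusted p = 0.0395), in both lines, and LSS, at 0.37 ± 0.16, did not pass (limma, adjusted p = 0.0675).

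The calls of INSIG1 and SQLE at 200 nM held under each of the 3 other scalings and a pseudocount of 0.1. The 200 nM calls of IDI1 and HMGCS1 were lost with 75th percentile scaling, and that of SREBF2 with ribosomal protein scaling. At 50 nM the call of SQLE was lost with 75th percentile scaling. Removing each library in turn left a condition with only 1 library, so only effect sizes are given for those fits. At 200 nM the log2 effect ran from -2.34 to -1.61 for INSIG1 and from -1.89 to -1.58 for SQLE. IDI1 and HMGCS1 were nearest 0 without the SKNMC 200 nM library, at -0.34 and -0.32, and SREBF2 ran from 0.28 to 0.44. At 50 nM INSIG1 was nearest 0 without the A673 50 nM library (-0.59) and SQLE without the A673 DMSO library (-0.47).

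**Figure D1:**
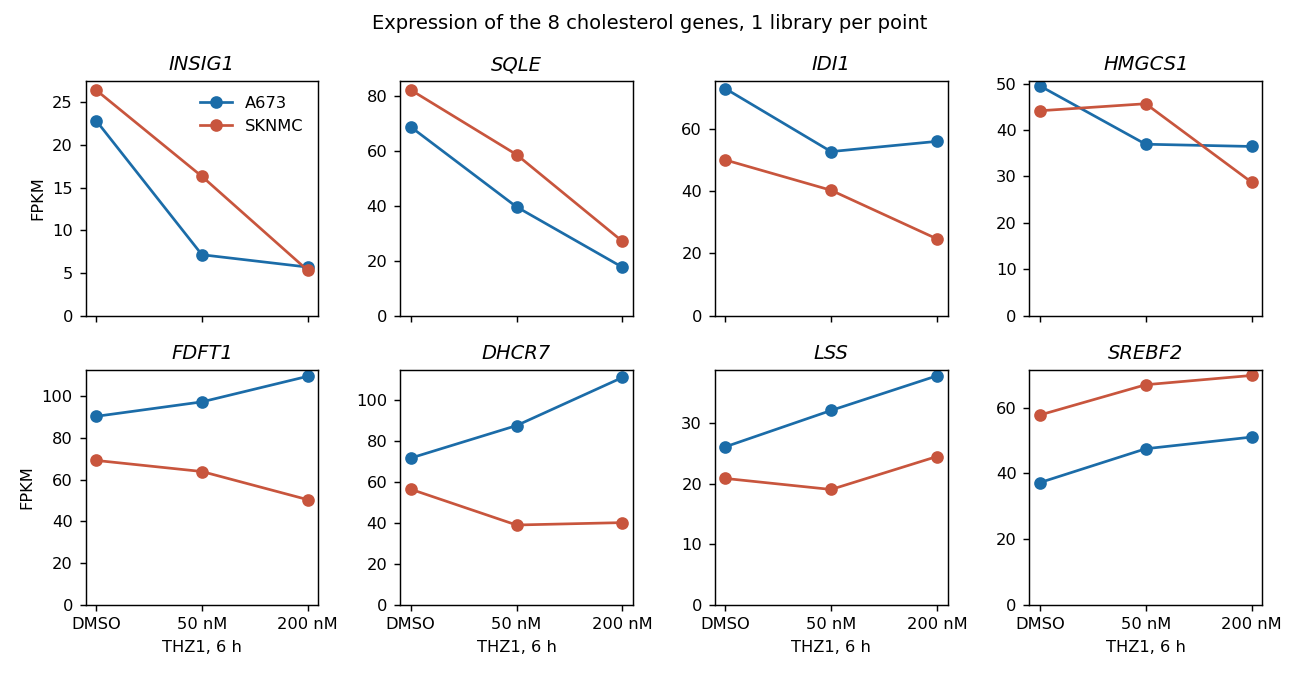
FPKM of each of the 8 genes (vertical axis, from 0) with DMSO, 50 nM and 200 nM THZ1 in A673 (blue) and SKNMC (red), each point 1 library, ordered from the lowest to the highest mean change. INSIG1 and SQLE decline in both lines, SREBF2 lies above its DMSO level in both (in SKNMC not after ribosomal protein scaling), and, in FPKM as deposited, FDFT1 and DHCR7 part between the lines.

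INSIG1 encodes the sterol-sensing protein that retains SCAP and SREBP in the endoplasmic reticulum and is itself a known SREBP target. The gene (ENSG00000186480) lies on the + strand at chr7:155089485-155101945 in hg19. The A673 libraries held 22.9 FPKM under DMSO, 7.15 at 50 nM and 5.70 at 200 nM. The SKNMC libraries held 26.4, 16.3 and 5.31 FPKM in the same order. Both lines thus reached a like level at 200 nM, with most of the decline at the low dose in A673 and at the high dose in SKNMC.

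The log2 fold changes of INSIG1 were -1.55 and -1.83 in A673 and -0.66 and -2.12 in SKNMC at 50 and 200 nM. In A673, 4.98% of active genes had a lower value at 50 nM and 6.60% at 200 nM. In SKNMC, 29.2% did at 50 nM and 2.71% at 200 nM, so that INSIG1 was well inside the distribution at the low dose there and near its lower end at the high dose. The paralog INSIG2, which acts on SCAP in the same way but is not a classical SREBP target, was at 9.09, 3.87 and 3.78 FPKM in A673 and at 11.5, 5.60 and 3.98 FPKM in SKNMC, in order of dose. Its log2 fold changes were -1.05 and -1.08 in A673 and -0.92 and -1.33 in SKNMC, so both INSIG transcripts were lower in each of the 4 comparisons.

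SQLE encodes squalene epoxidase, which adds oxygen to squalene and is a rate-limiting step of the sterol branch. The gene (ENSG00000104549) lies on the + strand at chr8:126010738-126034525. Its level in A673 was 68.7 FPKM under DMSO, 39.6 at 50 nM and 17.6 at 200 nM, and its level in SKNMC was 82.1, 58.6 and 27.1 FPKM. The decline was stepwise with dose in both lines, and 200 nM left 25.7% of the DMSO level in A673 and 33.0% of it in SKNMC. The log2 fold changes were -0.78 and -1.90 in A673 and -0.48 and -1.57 in SKNMC. At 200 nM, 5.71% of active genes were lower than SQLE in A673 and 9.94% in SKNMC.

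The early enzymes were less affected. HMGCS1, which joins acetyl-CoA and acetoacetyl-CoA to HMG-CoA at the head of the mevalonate pathway (ENSG00000112972, chr5:43289496-43313614, - strand), stood at 49.5, 36.9 and 36.4 FPKM in A673, in order of dose. The SKNMC levels were 44.1, 45.6 and 28.8 FPKM. HMGCS1 was therefore lower at both doses in A673 but only at 200 nM in SKNMC, with log2 fold changes of -0.41, -0.43, 0.05 and -0.60, of which the third turned to -0.30 with ribosomal protein scaling.

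IDI1, the isomerase that makes dimethylallyl diphosphate for the first condensation of isoprenoid units (ENSG00000067064, chr10:1085847-1095110, - strand), stood at 72.8, 52.6 and 55.9 FPKM in A673. SKNMC cells had 50.0, 40.2 and 24.6 FPKM. IDI1 was lower in all 4 comparisons, at log2 fold changes of -0.46, -0.38, -0.31 and -0.99. The last of these lies just inside the 2-fold threshold: with a pseudocount of 0.1 it was -1.02, which made 3 of 8 genes past it in SKNMC at 200 nM. These changes were near the middle of all active genes, since 38.3% and 51.0% of them were lower than IDI1 in A673 and 51.0% and 27.6% in SKNMC.

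FDFT1, LSS and DHCR7 act at the entry to and along the sterol branch. FDFT1 encodes squalene synthase, which couples farnesyl diphosphate to squalene (ENSG00000079459, chr8:11653081-11696818, + strand). Its levels, in order of dose, were 90.4, 97.3 and 109.6 FPKM in A673, and 69.3, 63.9 and 50.4 FPKM in SKNMC. The level went up with dose in A673 and down with dose in SKNMC. The log2 fold changes of FDFT1 were 0.11, 0.28, -0.11 and -0.45, and each of these 4 signs changed under another scaling of the libraries.

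LSS encodes lanosterol synthase, which folds squalene epoxide into the first sterol (ENSG00000160285, chr21:47608054-47648738, - strand). LSS had 26.1, 32.1 and 37.9 FPKM in A673, and 20.9, 19.1 and 24.5 FPKM in SKNMC. LSS, which uses the product of SQLE, thus stood above its DMSO level in both lines at 200 nM, where SQLE was at its lowest. The log2 fold changes were 0.29 and 0.52 in A673 and -0.13 and 0.22 in SKNMC, of which both SKNMC values changed sign under another scaling.

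DHCR7 encodes the reductase that turns 7-dehydrocholesterol into cholesterol (ENSG00000172893, chr11:71139238-71163914, - strand). A673 had 71.6 FPKM under DMSO, 87.5 at the low dose and 110.9 at the high dose. SKNMC had 56.4, 38.9 and 40.1 FPKM. DHCR7 had the highest value of the 8 genes in A673 at 200 nM, a log2 fold change of 0.62 above 98.8% of active genes, and values of -0.52 and -0.48 in SKNMC, near the middle of active genes. The SKNMC value at 200 nM turned to 0.08 with the 75th percentile scaling.

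SREBF2, the gene of SREBP-2 (ENSG00000198911, chr22:42229108-42303312, + strand), stood at 37.2, 47.5 and 51.0 FPKM in A673, in order of dose. Levels in SKNMC were 57.7, 67.0 and 69.8 FPKM. It was the only one of the 8 genes above its DMSO value in all 4 comparisons as deposited. The log2 fold changes were 0.34 and 0.45 in A673 and 0.21 and 0.27 in SKNMC, and both SKNMC values fell below 0 with libraries scaled by the ribosomal protein genes. In A673, 93.4% of active genes at 50 nM and 94.6% at 200 nM had a lower log2 fold change than SREBF2, and in SKNMC 86.3% and 91.0% did.

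The paralog SREBF1, whose product SREBP-1 mainly serves fatty acid synthesis, was at 17.1, 14.99 and 13.5 FPKM in A673 and at 11.6, 8.13 and 8.48 FPKM in SKNMC. Its log2 fold changes were -0.18, -0.33, -0.47 and -0.42, below 0 wherever those of SREBF2 were above it, in FPKM as deposited. The contrast depends on the scaling. Both SKNMC values of SREBF2 fell below 0 with ribosomal protein scaling. Scaling by the 75th percentile shifted the median of all active genes by 0.22 and 0.32 in A673 and by 0.25 and 0.48 in SKNMC. Some of the SREBF1 values are smaller in size than these shifts. The mRNA level says nothing about the cleavage of either protein.

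**Figure D2:**
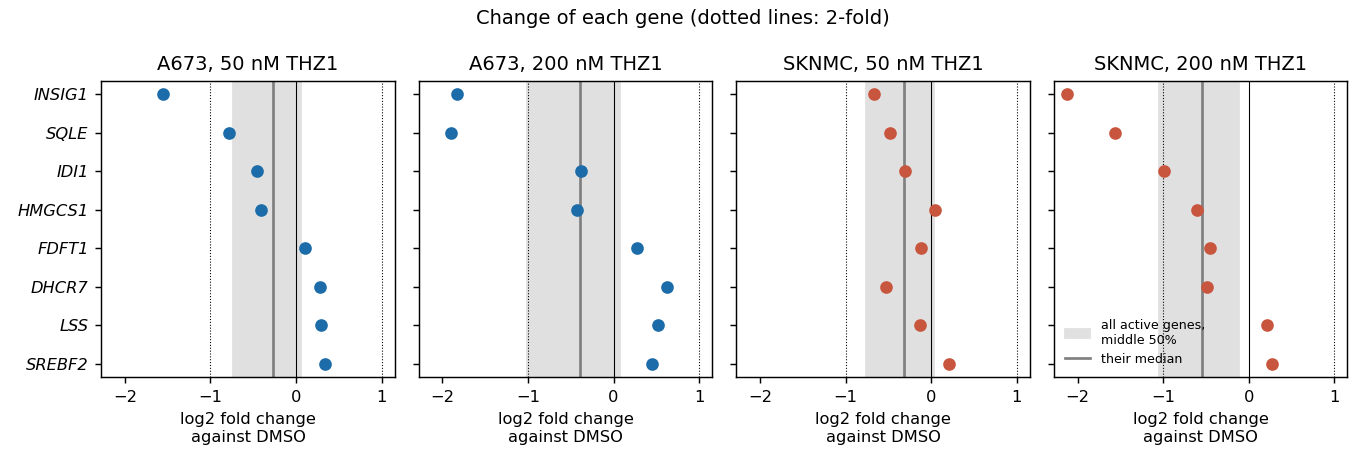
Log2 fold change against DMSO (horizontal axis) of each of the 8 genes, 1 panel per line and dose, 1 library of each condition behind each point; the grey band holds the middle 50% of all active genes, the grey line their median, and dotted lines mark 2-fold. INSIG1 and SQLE lie beyond 2-fold in both panels for 200 nM, and SREBF2 lies to the right of the grey band in all 4.

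The 2 doses were also compared directly, which leaves the shared DMSO library out. In A673, 1 of 8 genes was at least 2-fold lower at 200 nM than at 50 nM, where 7.44% of active genes were. This was SQLE, at 44.6% of its 50 nM level (log2 -1.12). INSIG1 kept 79.7% of its 50 nM level in A673, and HMGCS1 kept 98.7%. In SKNMC, 2 of 8 genes passed, where 8.39% of active genes did. INSIG1 was at 32.5% of its 50 nM level (log2 -1.46) and SQLE at 46.2% (log2 -1.09). HMGCS1 and IDI1 kept 63.0% and 61.3% in SKNMC, and LSS was at 129% of its 50 nM level. The median over the 8 genes of this direct log2 ratio was 0.09 in A673 and -0.49 in SKNMC, against -0.02 and -0.14 for all active genes.

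The lines were set side by side next. With DMSO, 0 of 8 genes differed at least 2-fold between A673 and SKNMC, where 15.9% of the 10574 genes active in both lines did. The ratio of A673 to SKNMC ran from 0.644 for SREBF2 to 1.46 for IDI1. The order of levels with DMSO in A673 was FDFT1, IDI1, DHCR7, SQLE, HMGCS1, SREBF2, LSS and INSIG1. In SKNMC it was SQLE, FDFT1, SREBF2, DHCR7, IDI1, HMGCS1, INSIG1 and LSS. Without replicates it cannot be said which neighbours in these orders differ. LSS and INSIG1 were the lowest pair in both lines.

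The response at 200 nM was higher (less negative or more positive) in A673 than in SKNMC for 7 of 8 genes, and so it was for 61.9% of genes active in both lines. The exception was SQLE, with a log2 difference, A673 minus SKNMC, of -0.34. The difference was 1.11 for DHCR7, 0.73 for FDFT1 and 0.61 for IDI1, all outside the middle 50% of genes active in both lines, which ran from -0.17 to 0.38. At 50 nM, 4 of 8 genes were higher in A673, where 53.4% of genes were. INSIG1 had the most negative difference of the 8 at that dose, -0.89, and DHCR7 the most positive, 0.81, with the middle 50% of all genes between -0.18 and 0.21. These differences between the lines could not be tested.

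**Figure D3:**
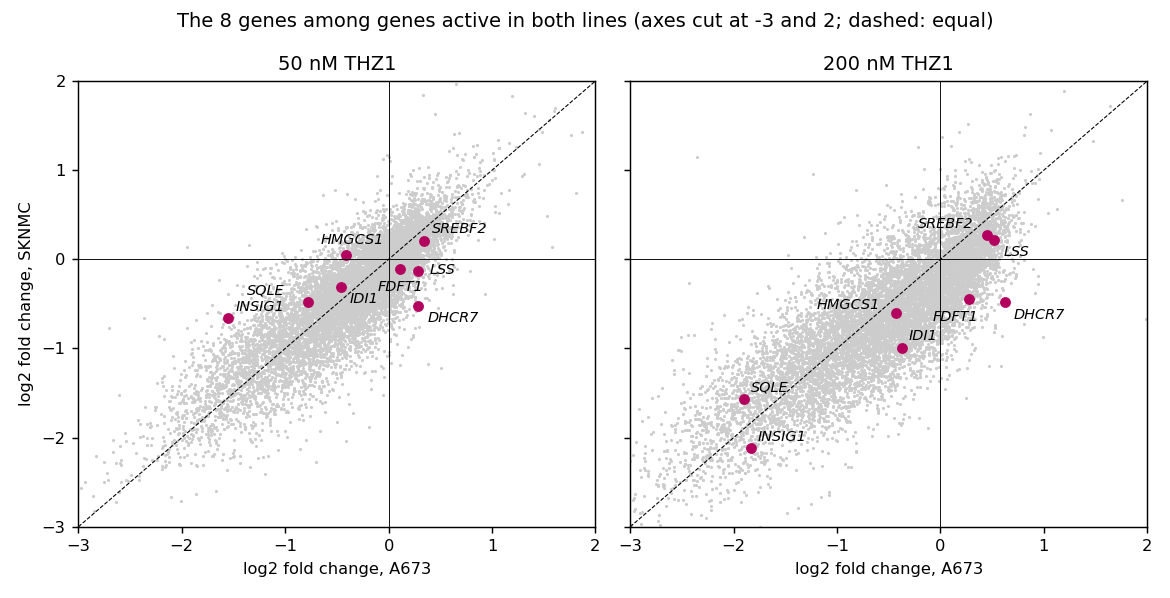
Log2 fold change against DMSO in A673 (horizontal axis) and in SKNMC (vertical axis) at 50 nM and at 200 nM THZ1, with the 8 genes in magenta and genes active in both lines in grey. DHCR7 and FDFT1 lie in the quadrant above 0 in A673 and below 0 in SKNMC at both doses in FPKM as deposited (not for either gene after 75th percentile scaling), and INSIG1 moves from above the line of equal change at 50 nM to below it at 200 nM.

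Some features of the transcripts were read from GENCODE release 44 on GRCh37 (the canonical transcript), beside those of 10383 protein-coding genes active in both lines. LSS, SREBF2 and DHCR7 had a GC content of 58.1%, 58.0% and 58.1%, above the 75th percentile of active genes (56.6%). They were also the 3 genes with the highest log2 fold change in A673 at both doses. This did not hold in SKNMC. There DHCR7, at -0.52 and -0.48, was below FDFT1, at -0.11 and -0.45, whose GC content was 46.5%. The other 5 lay between 37.9% (IDI1) and 46.5% (SQLE), below the median of 47.7%. FDFT1 and SQLE, which went apart in A673, had the same GC content of 46.5%.

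The pentamer ATTTA, the unit of AU-rich elements that mark many short-lived mRNAs, was counted in the 3′ untranslated region. HMGCS1 and IDI1 held 12 each, INSIG1 held 6, FDFT1 held 5, SREBF2 held 4, SQLE held 3, DHCR7 held 2 and LSS held 0, where the median of active genes was 2. This region was 338 bases long in SQLE and 1965 in INSIG1 (median of active genes, 1341). The gene spans ran from 9.26 kb for IDI1 to 74.2 kb for SREBF2 (median of active genes, 32.4 kb). INSIG1 spans 12.5 kb and SQLE 23.8 kb. Of the 8 genes, 6 overlap a lncRNA on the opposite strand in this annotation, INSIG1 and SQLE being the exceptions, and the sources used here do not state whether reads were counted by strand, so reads of such pairs cannot be told apart.

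Genes with a like profile were sought for the genes at either end, by the root mean square difference of the 4 log2 fold changes over 5986 candidates that exceeded 10 FPKM with DMSO in each line. The nearest to INSIG1 were BYSL (a ribosome biogenesis factor) at 0.17, ZCCHC8 (a subunit of the nuclear exosome targeting complex) at 0.19 and TMEM41A at 0.20. BYSL, for example, was at 41.1, 15.8 and 10.9 FPKM in A673 and at 30.6, 15.8 and 6.28 FPKM in SKNMC. The nearest to SREBF2 were ZNF428 at 0.02, FARP1 at 0.04 and SNX3 (a sorting nexin) at 0.04. No neighbour of either gene was on the sterol and lipid lists.

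The 8 genes were then placed among their pathway, with lists of 60 sterol and lipid genes that include them. Without the 8, 49 of the other 52 genes were active in each line. Of these, 7 (14.3%) were at least 2-fold lower in A673 at 50 nM and 3 (6.12%) at 200 nM, beside 15.9% and 25.3% of all active genes. In SKNMC the counts were 5 (10.2%) and 14 (28.6%), beside 15.8% and 27.3%. The medians of the 49 were 0.02 and 0.03 in A673 and -0.20 and -0.38 in SKNMC. Genes of these lists named from here on were chosen after their values were seen.

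The mevalonate arm, from acetyl-CoA to farnesyl diphosphate, has 8 genes, HMGCS1 and IDI1 among them, all active. The list had median log2 fold changes of -0.28 and -0.11 in A673 and of -0.33 and -0.57 in SKNMC, low dose first, of which the A673 value at the high dose turned to 0.25 with 75th percentile scaling. MVK, the kinase that phosphorylates mevalonate, went from 11.3 FPKM to 3.99 and 5.96 in A673 and from 10.8 FPKM to 1.92 and 1.63 in SKNMC. It passed the threshold in 3 of 4 comparisons, with log2 fold changes of -1.30, -0.82, -2.01 and -2.16.

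The squalene and sterol arm has 13 genes, with FDFT1, SQLE, LSS and DHCR7 among them. At 50 nM, 0 of 13 passed 2-fold in either line, where 15.9% of all active genes in A673 and 15.8% in SKNMC were lower. At 200 nM in A673, SQLE was the only gene at least 2-fold lower, beside 25.3% of all active genes. TM7SF2, a sterol reductase, was higher there, at 10.0 FPKM with DMSO and 21.6 at 200 nM (log2 1.04). At 200 nM in SKNMC, 5 of 13 were at least 2-fold lower, beside 27.3% of all active genes, a count that was 1 (SQLE) with 75th percentile scaling and 9 with ribosomal protein scaling. Beside SQLE these were CYP51A1 (-1.07), MSMO1 (-1.03), NSDHL (-1.25) and HSD17B7 (-1.19), all of which take part in removing methyl groups from lanosterol and its products. HSD17B7 has near-identical pseudogene copies, so its value is uncertain. In A673 at the same dose the 4 had log2 fold changes of 0.10, -0.64, -0.26 and -0.73. The list medians at 200 nM were 0.10 in A673, which turned to -0.28 with ribosomal protein scaling, and -0.48 in SKNMC, which turned to 0.08 with 75th percentile scaling.

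The list of SREBP regulation has 7 genes, with SREBF2 and INSIG1. In A673, 2 of 7 were at least 2-fold lower at each dose, INSIG1 and INSIG2. In SKNMC, 1 of 7 was lower at 50 nM and 3 of 7 at 200 nM. Of all active genes, 15.9% and 25.3% in A673 and 15.8% and 27.3% in SKNMC were lower at these doses. With only 7 genes, these counts are not a result about the list. MBTPS2, the membrane protease that makes the second cut of SREBP, passed in SKNMC at both doses (-1.17 and -1.04). Both INSIG genes passed there at 200 nM. With 75th percentile scaling the counts of this list were 1 and 1 in A673 and 0 and 1 in SKNMC. The list of lipoprotein uptake and sterol traffic had 9 of 10 genes active. Its median log2 fold changes were 0.37 and 0.25 in A673 and 0.14 and -0.17 in SKNMC, low dose first, and the sign of each but the first changed under another scaling. At least 2-fold lower were 1 of 9 at each dose in A673, and 1 and 2 of 9 in SKNMC, beside the shares given above. In this list 1 gene was at least 2-fold higher at 50 nM in both lines, beside 0.343% of active genes in A673 and 0.471% in SKNMC. MYLIP, a ubiquitin ligase and known LXR target, went from 2.97 to 8.30 FPKM in A673 and from 9.77 to 24.7 FPKM in SKNMC. It was back at 3.43 and 9.03 FPKM at 200 nM.

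**Figure D4:**
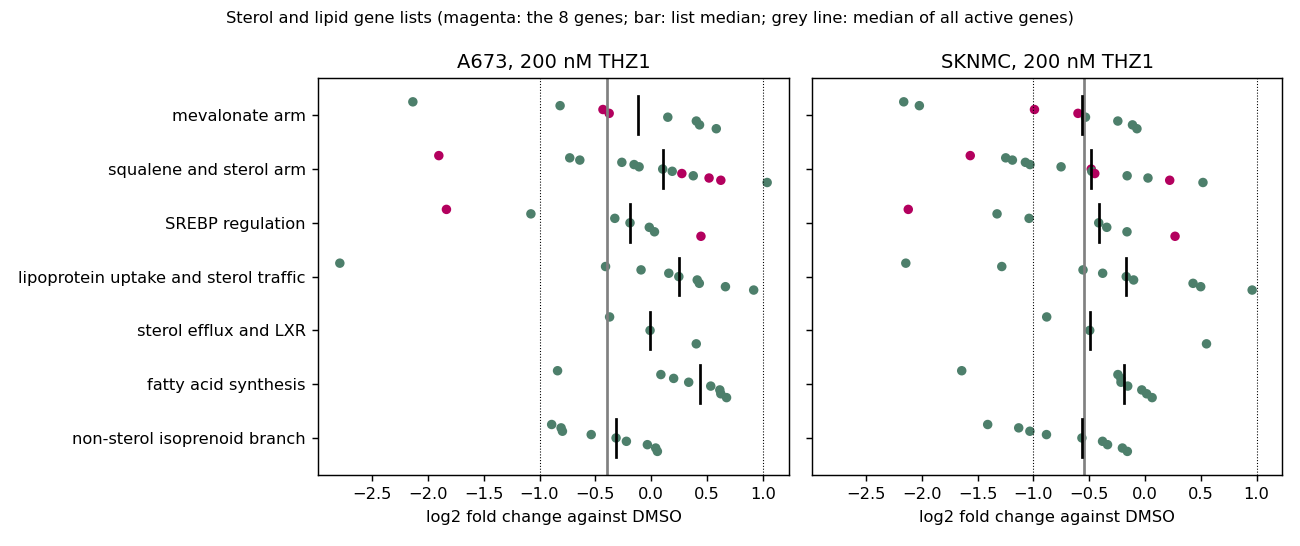
Log2 fold change at 200 nM THZ1 against DMSO (horizontal axis) for the active genes of each list in A673 and SKNMC, with the 8 genes in magenta, list medians as black bars, the median of all active genes as a grey line and 2-fold as dotted lines. Most lists spread over both sides of 0, and SQLE and INSIG1 lie at the far left of their lists.

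How the libraries are scaled decides several of these signs. Dividing each library by the 75th percentile of active-gene FPKM shifted the median of all active genes by 0.22 (50 nM) and 0.32 (200 nM) in A673, and by 0.25 and 0.48, respectively, in SKNMC. Dividing by the median of 78 ribosomal protein genes shifted it by -0.20 and -0.31 in A673 and by -0.26 and -0.39 in SKNMC. Under the first of these scalings, 23.9% of all active genes past 2-fold in SKNMC at 200 nM were higher, in place of 1.67%. Of 32 log2 fold changes (8 genes in 4 comparisons), 22 kept their sign under a pseudocount of 0.1 and all 3 scalings. INSIG1, SQLE and IDI1 kept it in 4 of 4 comparisons, HMGCS1 and DHCR7 in 3, SREBF2 and LSS in 2 (those of A673), and FDFT1 in 0. Some of these signs were kept only near 0. With the 75th percentile, IDI1 was at -0.0065 in A673 at 200 nM and at -0.0207 in SKNMC at 50 nM. HMGCS1 at 200 nM was then at -0.0651 in A673 and -0.0481 in SKNMC. INSIG1 and SQLE also stayed past 2-fold at 200 nM in both lines under each of these settings, SQLE in SKNMC narrowly, at -1.02 with the 75th percentile.

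**Figure D5:**
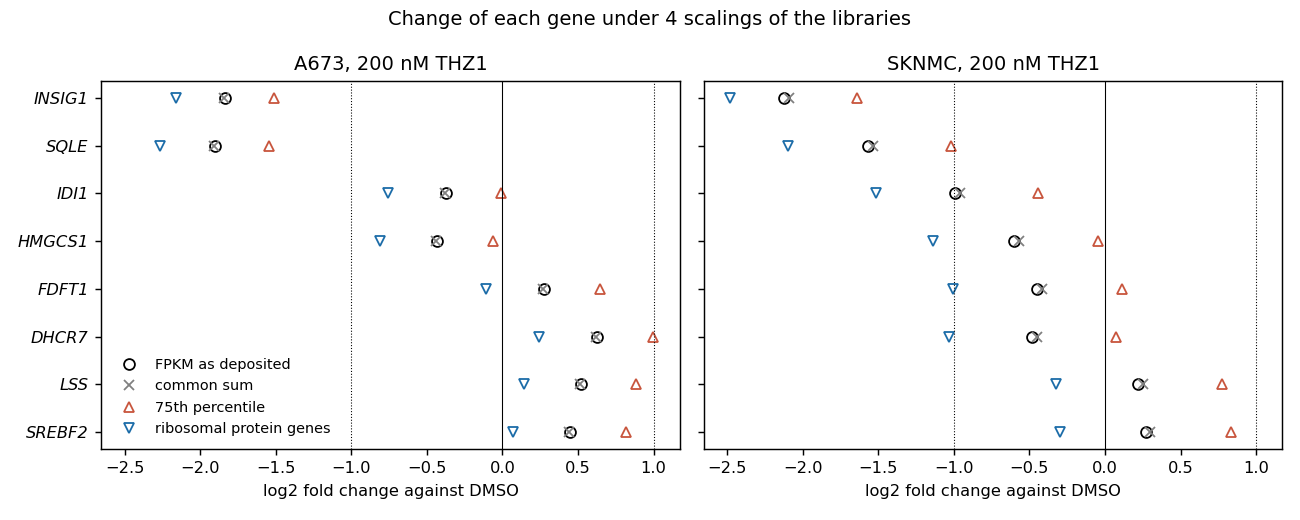
Log2 fold change at 200 nM THZ1 against DMSO (horizontal axis) of the 8 genes in A673 and SKNMC with FPKM as deposited (circles) and after 3 other scalings of the libraries (crosses, common sum; triangles up, 75th percentile; triangles down, ribosomal protein genes). INSIG1 and SQLE are below -1 under each scaling in both lines, and FDFT1 has points on both sides of 0 in both lines.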

How the data were processed

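RNA was sequenced by the authors from A673 and SKNMC cells, 1 sample per condition by the labels. Per the study's methods, TruSeq libraries were read as 100-bp pairs on a HiSeq2000, aligned to hg19 with STAR and quantified as FPKM with StringTie against Ensembl 75; the submitters' processing notes also name Cufflinks. Tool versions are not given in the sources used here. The authors deposited FPKM for protein-coding and lincRNA genes, and log2 fold changes of THZ1 against DMSO, which were not used.

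Log2 fold changes with a pseudocount of 1 were computed on the whole table with Python 3.11.15, pandas 2.3.3 and numpy 2.4.6, and figures drawn with matplotlib 3.10.9. Both calculations were tested on simulated data. A change of at least 2-fold was counted among genes above 1 FPKM with DMSO. Samples were grouped by their labels. Within a line no condition is repeated, so no test was made there. A fit with limma 3.58.1 (R 4.3.3, trended variance) blocked on cell line was added after the data were seen. The blocks are the lines, named in the labels. The genes and lists were chosen with earlier results of these data known. The genes named are the 8 genes, the paralogs INSIG2 and SREBF1, the 3 genes nearest in profile to the lowest and highest of the 8, and list genes named as chosen afterwards. Some list genes are not reported here. Alternatives were a pseudocount of 0.1, a 1.5-fold threshold, no filter on low values, and scaling by a common sum, the 75th percentile of active genes or the ribosomal protein genes.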

Additional observations from a re-analysis of the deposited data

Results flagged for a closer look

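FDFT1 and DHCR7 went opposite ways in the lines at both doses. FDFT1 had log2 fold changes of 0.11 (50 nM) and 0.28 (200 nM) in A673 beside -0.11 (50 nM) and -0.45 (200 nM) in SKNMC. DHCR7 had 0.29 and 0.62 in A673 beside -0.52 and -0.48 in SKNMC. With 1 library per line and dose, this difference was not tested. Of the 10574 genes active in both lines, 464 (4.39%) were above DMSO in A673 and below it in SKNMC at both doses, and 93 showed the reverse. The opposite signs held for DHCR7 under 2 of 3 scalings and for FDFT1 under 1 of 3. In A673 the log2 fold change exceeded that of SKNMC at both doses for both genes under all 3 scalings.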

How the results depend on the processing

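In the fit with the cell line as a replicate block, chosen after seeing the data, 2 and 4 of the 8 genes were lower at 50 and 200 nM and 0 and 1 higher. These counts were 1, 2, 1 and 4 with 75th percentile scaling and 3, 5, 0 and 0 with ribosomal protein scaling. Of all 11503 genes, 2499 and 3275 were lower and 1880 and 2715 higher with the first scaling, at 50 and 200 nM. With the second, 5873 and 8271 were lower and 129 and 65 higher. Leaving out each library in turn left a condition with only 1 library, so no calls are counted from those fits. Without the block each line stands alone, with no test. Scaled by the 75th percentile, the median log2 fold change of the 8 genes was 0.10 and 0.32 in A673 and 0.066 and 0.014 in SKNMC at 50 and 200 nM, and scaled by the ribosomal protein genes it was -0.39, -0.43, -0.56 and -1.09. Under the 75th percentile the other list genes at least 2-fold lower numbered 2 in A673 at 50 nM, 3 in SKNMC at 50 nM and 4 in SKNMC at 200 nM, of 49 active. Among all active genes, 1221 of 11077, 1279 of 11896 and 1668 of 11896 were. The SKNMC medians of the other list genes were 0.068 and 0.15 under this scaling. In SKNMC, 1 of the 8 genes was then at least 2-fold lower at 200 nM than at 50 nM. Scaled by the ribosomal protein genes, 2 of the 8 were at least 2-fold lower in A673 at 50 nM and 6 in SKNMC at 200 nM. Among all active genes, 2382 of 11077 and 5456 of 11896 were. Under this scaling 1 of the 8 differed between the lines with DMSO, and their A673 median of 200 nM against 50 nM was -0.052. The other list genes then had 10 lower in A673 at 200 nM and 10 in SKNMC at 50 nM, with A673 medians of -0.22 and -0.32. Among all active genes, 3955 of 11077 and 2706 of 11896 were lower in these 2 comparisons. With a 1.5-fold threshold, the 8 genes gave 2 lower in A673 at 50 nM, 1 higher in A673 at 200 nM, 1 lower in SKNMC at 50 nM, 4 lower in SKNMC at 200 nM, 4 lower at 200 nM against 50 nM in SKNMC and 1 different between the lines, and the other list genes gave 11, 10 and 12 lower in A673 at 50 nM, A673 at 200 nM and SKNMC at 50 nM. With a pseudocount of 0.1, 9 of the other list genes were lower in SKNMC at 50 nM, and with no filter their A673 medians were -0.002 and -0.013. The shares of all active genes past 1.5-fold, or past 2-fold with this pseudocount, were not counted. The counts at these settings are therefore no result about the 8 genes or the lists. The cause of the shifts between settings was not tested. FPKM carries no read counts, so the counting error of each value is unknown.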

Other observations

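Lipid genes beside the sterol pathway were looked at through 3 further lists. The 8 genes of fatty acid synthesis had median log2 fold changes, low dose first, of 0.22 and 0.44 in A673 and -0.29 and -0.19 in SKNMC. The SKNMC median at 200 nM turned to 0.38 with 75th percentile scaling, and the A673 median at 50 nM to -0.007 with ribosomal protein scaling. Of these 8 genes, ELOVL6, a fatty acid elongase, was at least 2-fold lower in A673 at 50 nM and in SKNMC at 200 nM, with 16.4, 7.57 and 8.75 FPKM in A673 and 4.30, 1.65 and 0.697 FPKM in SKNMC, of which the A673 call was lost with 75th percentile scaling. No gene of this list passed 2-fold in A673 at 200 nM or in SKNMC at 50 nM.

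Of the 9 genes of the non-sterol isoprenoid branch, 2 were at least 2-fold lower in A673 with the low dose and 0 with the high dose, while SKNMC had 1 and 3, beside 15.9% and 25.3% of all active genes in A673 and 15.8% and 27.3% in SKNMC. With 75th percentile scaling these counts were 0, 0, 1 and 0, and with ribosomal protein scaling 2, 3, 3 and 5. GGPS1, which makes geranylgeranyl diphosphate, went from 14.0 FPKM to 6.02 and 7.58 in A673 and from 28.5 FPKM to 8.12 and 10.1 in SKNMC. FNTA, a subunit shared by farnesyl and geranylgeranyl transferase, had log2 fold changes of -1.05, -0.89, -0.98 and -1.03, and PDSS1, a subunit of the enzyme that makes the ubiquinone side chain, was at -1.13 in SKNMC at 200 nM. Of 5 genes of sterol efflux and LXR, 3 were active, and 1 of these, NR1H2 (an LXR gene), passed 2-fold, at -1.20 in SKNMC at 50 nM, though not with 75th percentile scaling. These genes were named after their values were seen.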
